A study of Rattus norvegicus with 12 samples.

Results

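A set of 40 genes of DNA replication and the cell division cycle was followed across rat cornea libraries. They were chosen by symbol, as a roll of replication, G1/S and mitosis genes, with earlier results of these data known. Of the 40 named genes 39 had a row among the 30452 genes of the table, and 36 were among the 10049 features that passed the filter on low values. No row carried the symbol Cks2, whose level is not analysed here. The libraries came from 4 groups of 3 libraries each, which the labels call SF/HA-HEP-PAM, SF/HA, Alkali-burned and Control. The series concerns a detachable silk-based patch for the eye surface that takes up mediators of inflammation. SF, HA, HEP and PAM are not spelled out in the labels, which also do not say whether the patch groups were burned. Strain, age, sex and the time of collection are not given in the sources used here. Nor do the labels say whether replicates are separate animals, and p-values here reflect no more than the spread among 3 libraries a group, which may be technical.

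A dividing cell first loads the 6-subunit MCM helicase (Mcm2 to Mcm7) onto DNA, with Cdc6 and Cdt1 as loaders and geminin (Gmnn) as the inhibitor of Cdt1. Cyclin D with Cdk4 and cyclin E with Cdk2 drive entry into S phase, and Cdkn1a (p21) holds these kinases back. Cyclin B with Cdk1 starts mitosis, after which Cdc20 and Ube2c serve the ubiquitin ligase that ends it. In the cornea, division is known mainly from the basal epithelium and the limbus, while keratocytes of an unwounded stroma rarely divide.

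Proximal promoters are shown because the licensing genes and the mitosis genes differed in some of the motifs they hold. RefSeq sequences of build GRCr8, from 250 bases before the gene start to 50 bases after it, matched 30 of the 40 genes, Cks2 among them. Both strands were searched for an E2F-type motif (TTTCCCGC, TTTGGCGC, TTTCGCGC or TTTGCCGC), for TTTGAA, the letters of the cell cycle homology region of mitotic genes, and for CCAAT. The E2F-type letters stood in 9 of 30 promoters (30.0%), against 2.14% of all 33469 promoters in the table. All 7 matched promoters of licensing and helicase genes held them (Mcm2, Mcm3, Mcm5, Mcm6, Mcm7, Cdt1 and Gmnn), as did Tyms and Cdk1. Tyms was the only 1 of 4 matched genes of nucleotide supply and the fork. TTTGAA stood in 12 of 30 promoters (40%), against 18.3% of all. It was in 5 of 7 promoters of G2/M genes and 6 of 8 of spindle and checkpoint genes, but in 1 of 7 of licensing genes. CCAAT stood in 20 of 30 (66.7%), against 37.5% of all, and was as common in licensing genes (5 of 7) as in spindle and checkpoint genes (6 of 8). In the sequences below, written 5′ to 3′ along the gene, capitals mark these 3 motifs. An overlapping pair of E2F-type matches on opposite strands merges into 1 run in Mcm5.
Mcm5 (chr19:13488563-13488862, plus strand): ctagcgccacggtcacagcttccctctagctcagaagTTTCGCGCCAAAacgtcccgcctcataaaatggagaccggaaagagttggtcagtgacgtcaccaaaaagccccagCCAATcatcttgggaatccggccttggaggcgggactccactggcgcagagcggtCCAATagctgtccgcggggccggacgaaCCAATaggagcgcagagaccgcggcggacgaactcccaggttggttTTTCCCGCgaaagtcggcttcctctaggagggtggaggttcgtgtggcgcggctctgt
Gmnn (chr17:40729584-40729883, plus strand): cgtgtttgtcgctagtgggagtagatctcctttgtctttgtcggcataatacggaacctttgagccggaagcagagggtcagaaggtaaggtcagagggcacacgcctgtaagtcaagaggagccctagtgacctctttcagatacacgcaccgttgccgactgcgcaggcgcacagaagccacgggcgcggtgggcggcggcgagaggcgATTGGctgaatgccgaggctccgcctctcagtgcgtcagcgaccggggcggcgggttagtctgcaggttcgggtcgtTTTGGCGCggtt
Cdk1 (chr20:19265043-19265342, plus strand): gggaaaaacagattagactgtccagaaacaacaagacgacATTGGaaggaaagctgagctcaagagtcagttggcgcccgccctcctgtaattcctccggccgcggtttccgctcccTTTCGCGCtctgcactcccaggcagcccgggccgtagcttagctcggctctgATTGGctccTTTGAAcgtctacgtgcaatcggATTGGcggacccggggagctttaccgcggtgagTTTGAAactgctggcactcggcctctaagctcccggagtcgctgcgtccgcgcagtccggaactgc
Cdc20 (chr5:137255750-137256049, minus strand): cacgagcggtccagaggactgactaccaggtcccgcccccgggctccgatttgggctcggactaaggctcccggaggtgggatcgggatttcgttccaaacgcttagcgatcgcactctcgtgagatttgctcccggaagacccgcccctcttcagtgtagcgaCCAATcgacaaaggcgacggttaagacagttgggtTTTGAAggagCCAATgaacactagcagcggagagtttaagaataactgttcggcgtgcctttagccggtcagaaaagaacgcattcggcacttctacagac
Mcm5 and Gmnn were licensing genes called in these corneas and held E2F-type letters without TTTGAA. Cdc20 held TTTGAA without E2F-type letters, and Cdk1 held both. A match is a description of the letters and not evidence of binding. The 10 genes without a match were Mcm4, Rrm2, Ccnd1, Ccnd2, Ccna2, Ccne2, Cdc6, Aurkb, Ube2c and Tpx2.

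Most of these genes were read thinly. Libraries held 1245606 to 2117399 reads on genes in SF/HA-HEP-PAM, 499061 to 957696 in SF/HA, 1173159 to 1265298 in Alkali-burned and 486264 to 1015788 in Control. A count of 0 allows up to 3 reads, which is 1.42 RPM (reads per 1000000 reads on genes) in the deepest library and 6.17 RPM in the shallowest, for counting error only. Of 39 genes, 9 averaged under 10 reads a library, 25 averaged 10 to 50 and 5 averaged more (Cdkn1a, Ccnd1, Pcna, Cdk4 and Cks1b). The cyclin E genes Ccne1 (0 to 10 reads a library) and Ccne2 (0 to 12) and the spindle checkpoint kinase Bub1b (0 to 5) fell below the filter and were not tested. The length behind the FPKM values is the genomic span with introns. Levels are given as RPM, and differences as log2 differences of RPM + 1 from limma, which understate the change of genes with few reads. A gene was called at an adjusted p below 0.05 and a log2 difference above 1 or below -1. In the build the submitters name, mRatBN7.2, 8 of 39 genes overlap another annotated gene. These are Mcm7, Tk1, Ccne2, Cdk4, Ccna2, Aurka, Ube2c and Tpx2, mostly with a neighbour on the opposite strand. Whether counting used strand is not stated, so their reads may include those of the neighbour.

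As sums over groups of genes, licensing and helicase genes were highest in SF/HA-HEP-PAM, and mitosis genes had their lowest mean sums in Control. The summed level of the 9 licensing and helicase genes was 201.8, 179.0 and 233.6 RPM in SF/HA-HEP-PAM, 125.8, 82.15 and 121.1 RPM in SF/HA, 121.9, 109.1 and 122.4 RPM in Alkali-burned and 94.6, 107.2 and 87.62 RPM in Control. Every SF/HA-HEP-PAM library lay above every other library in this sum. Its largest parts there were Mcm4 and Gmnn, with means of 53.15 and 52.76 RPM. Not all of the class followed the sum: Cdt1 had its highest mean in Control (10.24 RPM) and Mcm7 in Alkali-burned (21.32 RPM). The 8 G2/M cyclins and kinases summed to 154.3, 165.3 and 195.1 RPM in SF/HA-HEP-PAM, 178.2, 82.15 and 151.4 RPM in SF/HA, 182.4, 149.4 and 155.3 RPM in Alkali-burned and 61.69, 71.08 and 80.73 RPM in Control. All other libraries lay above Control in this sum, with SF/HA replicate 2, the shallowest of its group, closest to it. For the 10 spindle, checkpoint and segregation genes the sums were 187.8, 147.4 and 210.3 RPM in SF/HA-HEP-PAM, 191.6, 66.12 and 145.1 RPM in SF/HA, 147.5, 204.7 and 172.5 RPM in Alkali-burned and 74.03, 81.23 and 96.48 RPM in Control. Here SF/HA replicate 2 lay below all Control libraries. The 5 genes of nucleotide supply and the fork averaged 220.4 ± 15.4 RPM in SF/HA-HEP-PAM, 191.2 ± 27.4 in SF/HA, 182.1 ± 32.8 in Alkali-burned and 129.0 ± 17.9 in Control (SD, n = 3 each). The G1/S class, led by Cdkn1a and Ccnd1, averaged 1659 ± 234 RPM in SF/HA-HEP-PAM, 1062 ± 287 in SF/HA, 850.6 ± 80.6 in Alkali-burned and 1542 ± 302 in Control. Of the 39 genes, 24 had their highest group mean in SF/HA-HEP-PAM, 3 in SF/HA, 10 in Alkali-burned and 2 in Control, and 30 had their lowest in Control. No such count was made over all features. Of all features, 59.4% had positive differences in SF/HA-HEP-PAM against Alkali-burned, 66.8% against SF/HA and 63.6% against Control. The sums and means are of whole corneas, where fewer cells of a type and less RNA per cell cannot be told apart.

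**Figure D1:**
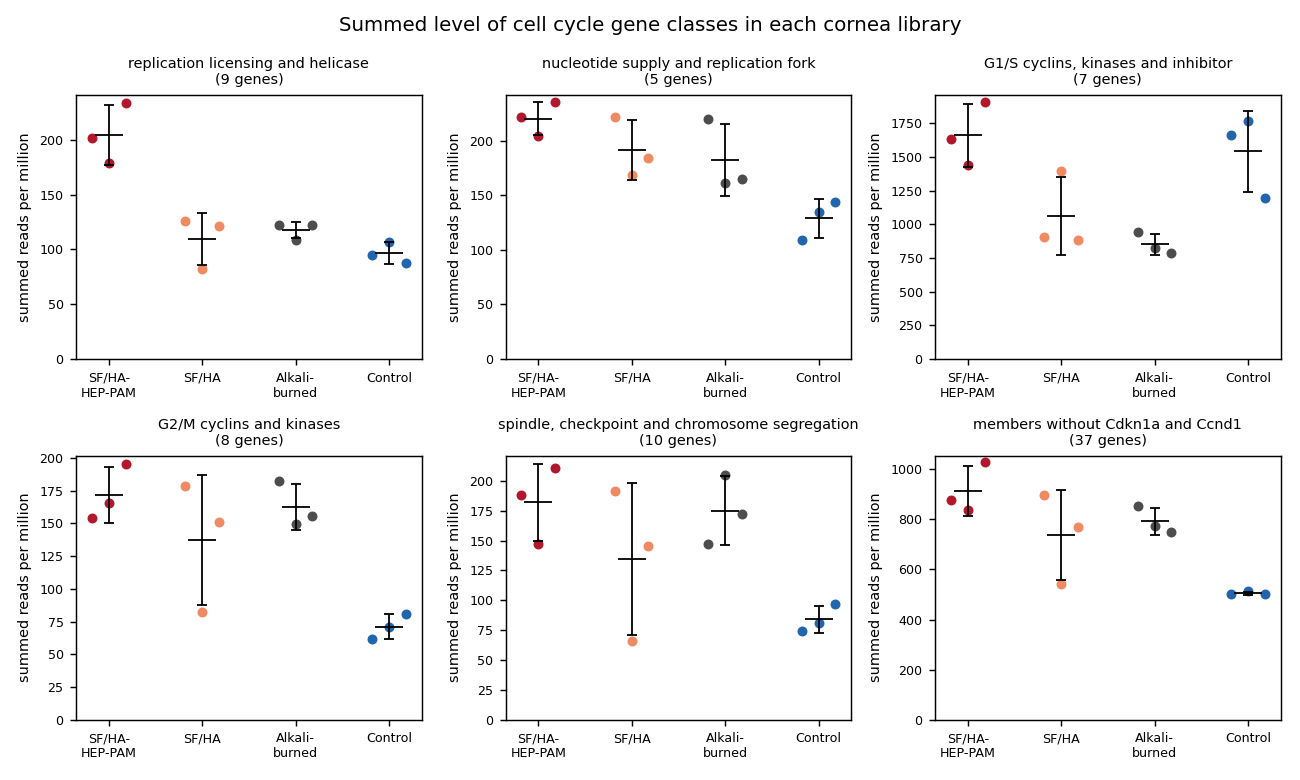
Summed RPM of each class of cell cycle genes (vertical axis) in the 4 groups (horizontal axis); points are libraries, horizontal lines means and bars SD. The 3 SF/HA-HEP-PAM libraries sit between 179.0 and 233.6 in the licensing panel, above all others, and the 3 Control libraries between 61.69 and 80.73 in the G2/M panel, below all others.

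Counts of called genes, read against all features tested, differed between the comparisons. SF/HA-HEP-PAM against Control gave 12 of 36 genes higher (33.3%), where 13.0% of all features were called higher; the genes' median log2 difference was 0.97 and that of all features 0.24. Alkali-burned against Control, which asks what the burn changed, gave 5 of 36 higher and 1 lower (13.9% and 2.78%), where 5.33% and 2.06% of all features were called; the medians were 0.81 and 0.02. SF/HA against Control gave 1 higher and 1 lower, against 4.43% and 2.02% of all features, with medians of 0.46 and -0.04. Comparisons with Alkali-burned ask what a patch changed only if the patch groups were burned, which the labels do not say. SF/HA-HEP-PAM against Alkali-burned gave 4 of 36 higher (11.1%), close to the 11.7% of all features called higher. SF/HA against Alkali-burned gave 0 called genes by limma and 0 by voom, with 1 at an unadjusted p below 0.05, where 0.776% of all features were called higher and 2.17% lower. SF/HA-HEP-PAM against SF/HA gave 1 higher, Mcm4, against 6.78% of all features. The F-test over the 4 groups passed for 12 of 36 genes (33.3%) and for 26.4% of all features.

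Libraries of SF/HA-HEP-PAM and of Alkali-burned often did not overlap with those of Control. All 3 SF/HA-HEP-PAM libraries lay above all 3 Control libraries in 22 of 36 genes (61.1%), against 26.2% of all features. All Alkali-burned libraries lay above all Control libraries in 19 of 36 genes (52.8%), against 15.8% of all features. For SF/HA this held in only 5 of 36 genes (13.9%), against 1133 of the 10049 features. In the SF/HA-HEP-PAM comparisons most features leaned upward, with a median over all features of 0.18 against Alkali-burned, 0.25 against SF/HA and 0.24 against Control. Median-of-ratios scaling moved these to -0.01, 0.05 and 0.05. The share of called features that were higher then changed as well, to 57.6% from 73.6% against Alkali-burned, to 66.8% from 88.9% against SF/HA and to 68.6% from 82.1% against Control. With quantile normalization these shares were 52.5%, 60.3% and 57.7%. Under median-of-ratios scaling 7 of the 12 genes called against Control and 2 of the 4 called against Alkali-burned kept the call. Counts also moved with single libraries. The 12 became 7 without SF/HA-HEP-PAM replicate 3, and the 6 of Alkali-burned against Control became 3 without any 1 of the Alkali-burned libraries.

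**Figure D2:**
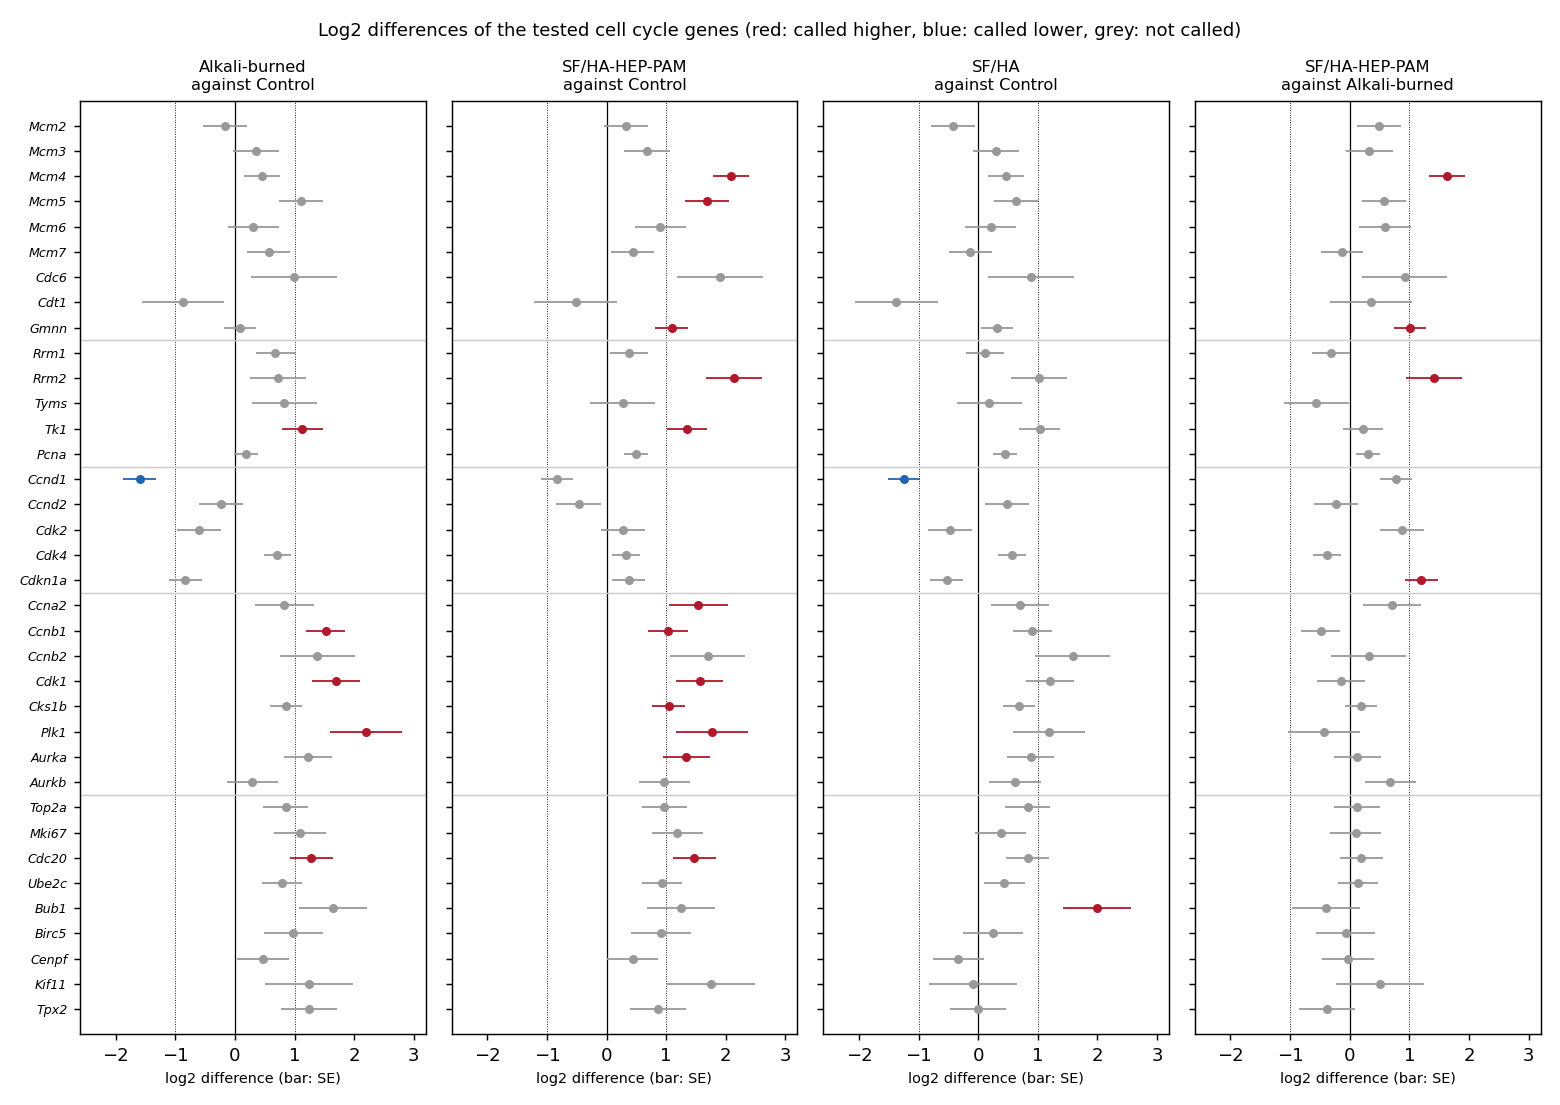
Log2 differences of the 36 tested genes (horizontal axis, in log2 units of RPM + 1) with their SE, in 4 comparisons; red marks genes called higher, blue lower and grey not called, and dotted lines stand at -1 and 1. G2/M genes lie right of 0 in both panels on the left, while Ccnd1 lies left of 0 in all 3 Control panels and Mcm4 stands furthest right in the SF/HA-HEP-PAM against Alkali-burned panel.

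Mcm4, a subunit of the replicative helicase, was higher in SF/HA-HEP-PAM than in each of the other groups. It had 50.3, 40.1 and 69.0 RPM in SF/HA-HEP-PAM, 24.0, 14.0 and 12.5 RPM in SF/HA, 17.9, 14.2 and 16.4 RPM in Alkali-burned and 10.3, 11.3 and 12.8 RPM in Control. These came from 72, 85 and 86 reads in SF/HA-HEP-PAM, 16, 7 and 12 in SF/HA, 21, 18 and 20 in Alkali-burned and 5, 10 and 13 in Control. Every SF/HA-HEP-PAM library exceeded every other library, while the SF/HA, Alkali-burned and Control libraries lay close together. On the deposited scale the means were 3.88 FPKM in SF/HA-HEP-PAM, 1.23 in SF/HA, 1.18 in Alkali-burned and 0.836 in Control. The log2 difference was 1.63 against Alkali-burned (SE 0.30, adjusted p = 0.00115), 1.62 against SF/HA (SE 0.30, adjusted p = 0.0035) and 2.09 against Control (SE 0.30, adjusted p = 0.000162). Mcm4 kept these calls in every alternative setting and with every library left out in turn, with log2 differences of 1.37 to 1.81, 1.32 to 1.89 and 1.79 to 2.34. Alkali-burned differed from Control by 0.46 (95% interval -0.18 to 1.10), which was not called. The gene (ENSRNOG00000001833) spans chr11:85258443-85272144 on the plus strand in mRatBN7.2 and overlaps no other annotated gene.

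Among the other helicase subunits Mcm5 was called in 1 comparison. Mcm5 had 23.0, 15.1 and 26.5 RPM in SF/HA-HEP-PAM, 7.49, 8.02 and 14.6 RPM in SF/HA, 11.1, 16.6 and 14.0 RPM in Alkali-burned and 6.17, 7.90 and 3.94 RPM in Control. It was higher in SF/HA-HEP-PAM than in Control (log2 1.69, SE 0.37, adjusted p = 0.00381), and those libraries did not overlap. The difference of SF/HA-HEP-PAM from Alkali-burned was 0.58 (95% interval -0.20 to 1.36). Alkali-burned libraries also lay above all Control libraries. Mcm5 was called in that comparison only with library weights (1.27, adjusted p = 0.0136). Mcm2, Mcm3, Mcm6 and Mcm7 were called in no comparison, with log2 differences of 0.33 to 0.90 for SF/HA-HEP-PAM against Control. As a share of the reads on all 6 subunits, Mcm4 took 37.7%, 34.8% and 40.6% in SF/HA-HEP-PAM, 29.6%, 25.0% and 17.1% in SF/HA, 23.1%, 18.0% and 17.4% in Alkali-burned and 19.2%, 15.9% and 22.4% in Control. The lowest 95% Wilson bound in SF/HA-HEP-PAM was 29.1%. The highest bound was 43.4% in SF/HA, 32.7% in Alkali-burned and 37.9% in Control, so the intervals of single libraries overlapped, for counting error only. This share does not depend on scaling between libraries. It was chosen after the values of Mcm4 had been seen and is given without a test.

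**Figure D3:**
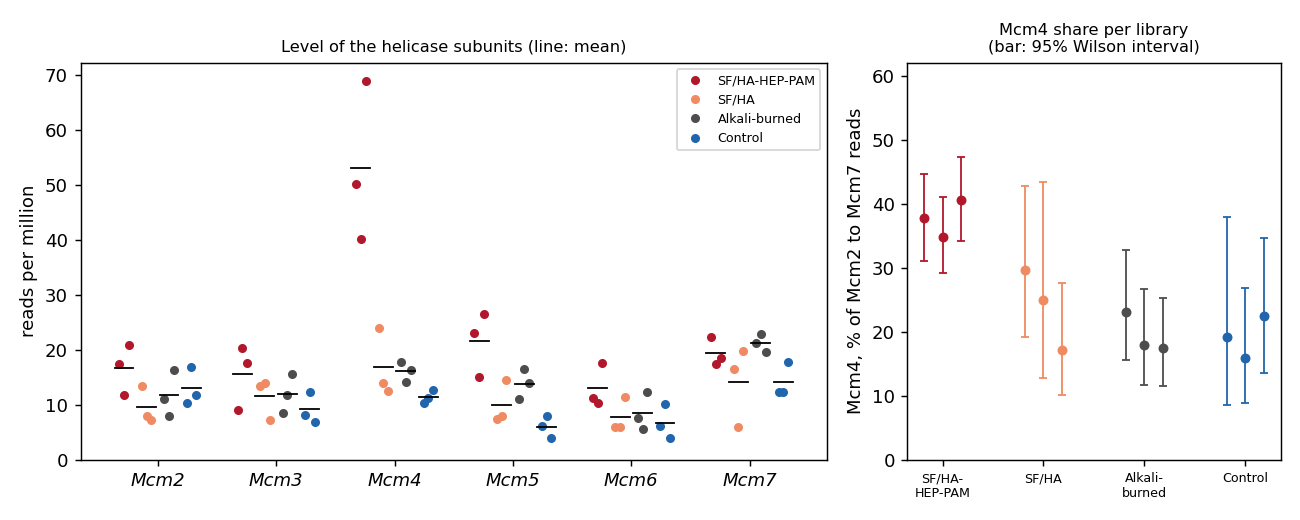
Left, RPM (vertical axis) of the 6 helicase subunits (horizontal axis), with 1 point per library, a line at the mean and groups by colour. Right, Mcm4 as a percent of the reads on all 6 subunits in each library, with 95% Wilson intervals; Mcm4 took 34.8% to 40.6% in SF/HA-HEP-PAM and 15.9% to 29.6% in the other libraries.

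Gmnn encodes geminin, which blocks a new round of licensing. It had 58.0, 50.5 and 49.8 RPM in SF/HA-HEP-PAM, 31.4, 26.0 and 34.5 RPM in SF/HA, 35.8, 20.5 and 23.0 RPM in Alkali-burned and 24.7, 30.5 and 18.7 RPM in Control. The SF/HA-HEP-PAM libraries lay above all others. The log2 difference was 1.01 against Alkali-burned (SE 0.27, adjusted p = 0.0135) and 1.09 against Control (SE 0.27, adjusted p = 0.00806); against SF/HA it was 0.77 (adjusted p = 0.0804) and not called. Both calls sit at the threshold of 1. With median-of-ratios scaling they were 0.82 and 0.89, under it. The call against Alkali-burned was also lost without SF/HA-HEP-PAM replicate 1 (0.94, adjusted p = 0.0579) or Alkali-burned replicates 2 (0.85, adjusted p = 0.0679) or 3 (0.93, adjusted p = 0.0603), and the call against Control without Control replicate 3 (0.92, adjusted p = 0.0417). The loaders Cdc6 and Cdt1, with 0 to 17 and 0 to 12 reads a library, were called in no comparison by limma on log2(RPM + 1) of all libraries. Cdc6 was called higher in SF/HA-HEP-PAM than in Control with library weights (2.34, adjusted p = 0.00501), without SF/HA replicate 2 (1.91, adjusted p = 0.0203) and without Control replicate 1 (2.27, adjusted p = 0.0467).

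Of the genes that supply nucleotides, Rrm2 and Tk1 were called and Rrm1, Tyms and Pcna were not. Rrm2, the small subunit of ribonucleotide reductase, had 20.9, 25.5 and 38.5 RPM in SF/HA-HEP-PAM, 15.0, 8.02 and 14.6 RPM in SF/HA, 13.6, 5.53 and 11.5 RPM in Alkali-burned and 2.06, 10.2 and 6.89 RPM in Control. The SF/HA-HEP-PAM libraries did not overlap with any others. Its log2 difference was 2.14 against Control (SE 0.47, adjusted p = 0.00387), a call kept in every alternative, although the lowest Control value is 1 read. Against Alkali-burned it was 1.42 (SE 0.47, adjusted p = 0.0409). That call was lost without any 1 of the SF/HA-HEP-PAM libraries (adjusted p = 0.0586, 0.0838 and 0.166 without replicates 1, 2 and 3) and without Alkali-burned replicates 2 (adjusted p = 0.171) or 3 (adjusted p = 0.075). Rrm1, the large subunit, differed by -0.31 against Alkali-burned (95% interval -0.99 to 0.38).

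Tk1, the thymidine kinase of S phase, had 63.5, 49.6 and 40.1 RPM in SF/HA-HEP-PAM, 53.9, 30.1 and 39.7 RPM in SF/HA, 54.6, 37.9 and 38.6 RPM in Alkali-burned and 14.4, 13.5 and 35.4 RPM in Control. Control replicate 3 stood close to the other groups, whereas the other Control libraries were far lower. Tk1 was higher than Control in SF/HA-HEP-PAM (log2 1.35, SE 0.34, adjusted p = 0.00944) and in Alkali-burned (1.13, SE 0.34, adjusted p = 0.0452). The first call was lost without SF/HA-HEP-PAM replicate 1 (adjusted p = 0.0506). The second was lost without SF/HA-HEP-PAM replicates 1 or 2, SF/HA replicate 3, any 1 of the Alkali-burned libraries, or Control replicates 1 or 2 (adjusted p = 0.0521 to 0.175). Without Control replicate 3 Tk1 was also called higher in SF/HA than in Control (1.46, adjusted p = 0.00982). Tk1 overlaps Syngr2 by 2953 bases on the opposite strand.

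Pcna, the sliding clamp of the replication fork, had 115, 111 and 121 RPM in SF/HA-HEP-PAM, 130, 114 and 97.1 RPM in SF/HA, 118, 90.9 and 77.2 RPM in Alkali-burned and 72.0, 92.5 and 83.7 RPM in Control. It was called in no comparison, and its difference between SF/HA-HEP-PAM and Control was 0.49 (SE 0.20, 95% interval 0.06 to 0.92, adjusted p = 0.104).

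In the G1/S class Ccnd1, cyclin D1, fell after the burn and in SF/HA relative to Control. It had 281, 191 and 173 RPM in SF/HA-HEP-PAM, 209.6, 136 and 133 RPM in SF/HA, 83.5, 159 and 138 RPM in Alkali-burned and 284, 435 and 421 RPM in Control. All Control libraries lay above all others, with SF/HA-HEP-PAM replicate 1 within a few RPM of the lowest. The log2 difference from Control was -1.60 in Alkali-burned (SE 0.27, adjusted p = 0.00123) and -1.25 in SF/HA (SE 0.27, adjusted p = 0.00787), and both calls were kept in every alternative. In SF/HA-HEP-PAM it was -0.83 (SE 0.27, 95% interval -1.40 to -0.26, adjusted p = 0.0402), short of the fold threshold. It passed there with median-of-ratios scaling or quantile normalization (-1.03 in both, adjusted p = 0.0138 and 0.0125), without SF/HA-HEP-PAM replicate 1 (-1.03, adjusted p = 0.0259) and without Control replicate 1 (-1.02, adjusted p = 0.0127). The gene (ENSRNOG00000020918) spans chr1:200089002-200098602 on the minus strand in mRatBN7.2. Ccnd2, another D cyclin, and the kinases Cdk2 and Cdk4 were called in no comparison by limma on log2(RPM + 1) of all libraries. Ccnd3, a D cyclin outside this set of genes, was called higher in Alkali-burned than in Control and is given below. Ccnd2 was called lower in SF/HA-HEP-PAM than in SF/HA with median-of-ratios scaling (-1.17, adjusted p = 0.0493) or quantile normalization (-1.28, adjusted p = 0.0321), and higher in SF/HA than in Control without Control replicate 1 (1.06, adjusted p = 0.0176). Cdk4 was called higher in Alkali-burned than in Control with all libraries thinned to the depth of the smallest (1.07, adjusted p = 0.0267).

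Cdkn1a, the inhibitor p21 and a target of p53, was the most read member in every library. It had 1244, 1104 and 1577 RPM in SF/HA-HEP-PAM, 517, 1112 and 588 RPM in SF/HA, 676, 514.5 and 518 RPM in Alkali-burned and 1217, 1210 and 685 RPM in Control. SF/HA replicate 2 and Control replicate 3 each stood far from the rest of their group. The deposited values averaged 126 FPKM in SF/HA-HEP-PAM, 71.2 FPKM in SF/HA and 54.9 FPKM in Alkali-burned. Cdkn1a was higher in SF/HA-HEP-PAM than in Alkali-burned (log2 1.20, SE 0.28, adjusted p = 0.00595), with no overlap and in every alternative. Against Control the difference was 0.37 (95% interval -0.22 to 0.96), against SF/HA 0.89 (adjusted p = 0.0531), and for Alkali-burned against Control -0.83 (adjusted p = 0.0783), none of them called. Single libraries decided the last 2. Without Control replicate 3 Cdkn1a was called lower in Alkali-burned than in Control (-1.10, adjusted p = 0.0284), as it was with quantile normalization (-1.03, adjusted p = 0.0331). Without SF/HA replicate 2 it was called higher in SF/HA-HEP-PAM than in SF/HA (1.23, adjusted p = 0.0072). The gene (ENSRNOG00000000521) spans chr20:7149217-7159585 on the plus strand in mRatBN7.2.

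Of the 8 G2/M cyclins and kinases, 6 rose in SF/HA-HEP-PAM and 3 in Alkali-burned against Control. The 6 in SF/HA-HEP-PAM (75.0%, against 13.0% of all features) were Ccnb1, Cdk1, Plk1, Ccna2, Cks1b and Aurka, with a median of 1.44 over the 8. All 6 of these calls were lost with quantile normalization. Those of Ccnb1, Plk1, Ccna2 and Cks1b were also lost with median-of-ratios scaling. The 3 in Alkali-burned (37.5%, against 5.33% of all features) were Ccnb1, Cdk1 and Plk1, with a median of 1.30. All 8 had positive differences in both comparisons, as had 63.6% of all features in SF/HA-HEP-PAM and 51.4% in Alkali-burned. For SF/HA against Control 0 of 8 passed in limma or voom, with 5 at an unadjusted p below 0.05 and a median of 0.89; these comparisons share the Control libraries. Without SF/HA replicate 2, Ccnb1 (1.25, adjusted p = 0.0304) and Cdk1 (1.63, adjusted p = 0.0225) were called higher in SF/HA than in Control, and Cdk1 also without Control replicate 3 (1.58, adjusted p = 0.0384). Against Alkali-burned, SF/HA-HEP-PAM gave a median of 0.16 and SF/HA of -0.26, with 0 of 8 called by limma or voom and 0 at an unadjusted p below 0.05 in either.

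Ccnb1, cyclin B1, had 32.1, 20.8 and 23.3 RPM in SF/HA-HEP-PAM, 32.9, 14.0 and 26.1 RPM in SF/HA, 37.5, 34.8 and 34.5 RPM in Alkali-burned and 8.23, 12.4 and 15.8 RPM in Control. Alkali-burned libraries were the highest and agreed closely with each other, and Control libraries overlapped only with SF/HA replicate 2. The log2 difference from Control was 1.52 in Alkali-burned (SE 0.33, adjusted p = 0.00697), kept in every alternative. It was 1.03 in SF/HA-HEP-PAM (SE 0.33, adjusted p = 0.0355). The call in SF/HA-HEP-PAM was lost without its replicates 1 or 3, Alkali-burned replicate 3, or Control replicates 1 or 2 (adjusted p = 0.0509 to 0.143). Its kinase Cdk1 had 20.3, 26.0 and 28.9 RPM in SF/HA-HEP-PAM, 28.4, 10.02 and 24.0 RPM in SF/HA, 31.5, 23.7 and 27.9 RPM in Alkali-burned and 4.11, 7.90 and 13.8 RPM in Control. Again SF/HA replicate 2 alone reached into the Control range. Cdk1 was higher than Control in Alkali-burned (log2 1.70, SE 0.40, adjusted p = 0.0129) and in SF/HA-HEP-PAM (1.56, SE 0.40, adjusted p = 0.0116). The calls were lost without Alkali-burned replicate 1 (1.61, adjusted p = 0.0571) and without SF/HA-HEP-PAM replicate 3 (1.45, adjusted p = 0.0534), each in its own comparison.

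Plk1, the polo-like kinase of mitotic entry, rested on few reads. It had 14, 11 and 10 reads in SF/HA-HEP-PAM, 7, 1 and 4 in SF/HA, 17, 13 and 9 in Alkali-burned and 1, 0 and 4 in Control. In RPM these were 9.78, 5.20 and 8.03 in SF/HA-HEP-PAM, 10.5, 2.00 and 4.18 in SF/HA, 14.5, 10.3 and 7.39 in Alkali-burned and 2.06, 0 and 3.94 in Control. The log2 difference from Control was 2.20 in Alkali-burned (SE 0.60, adjusted p = 0.0296) and 1.77 in SF/HA-HEP-PAM (SE 0.60, adjusted p = 0.0474). Its size depends on the pseudocount, at 3.45 and 2.98 with 0.1 RPM in place of 1, where neither passed (adjusted p = 0.065 and 0.0705). The first call was lost without any 1 of the Alkali-burned libraries or Control replicate 2 (adjusted p = 0.0562 to 0.127). The second was kept only without SF/HA replicates 1 or 2 or Control replicates 1 or 3 (adjusted p up to 0.202 otherwise).

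Cks1b, a small adaptor of cyclin-dependent kinases, had 46.8, 57.6 and 65.0 RPM in SF/HA-HEP-PAM, 58.4, 28.1 and 49.1 RPM in SF/HA, 56.3, 47.4 and 44.4 RPM in Alkali-burned and 30.8, 24.8 and 24.6 RPM in Control. Only SF/HA replicate 2 fell within the Control range. Its log2 difference from Control was 1.04 in SF/HA-HEP-PAM (SE 0.27, adjusted p = 0.0104), at the fold threshold, and 0.86 in Alkali-burned (adjusted p = 0.0543). The call was lost without SF/HA-HEP-PAM replicate 3 (0.94, adjusted p = 0.0568) or Control replicates 2 (adjusted p = 0.0347, just under the fold threshold) or 3 (0.99), and was 0.84 with median-of-ratios scaling. Ccna2, cyclin A2, had 11.9, 13.2 and 27.3 RPM in SF/HA-HEP-PAM, 13.5, 4.01 and 11.5 RPM in SF/HA, 11.1, 8.69 and 9.04 RPM in Alkali-burned and 2.06, 6.77 and 7.88 RPM in Control. SF/HA-HEP-PAM replicate 3 stood above the rest, and the call against Control (log2 1.54, SE 0.49, adjusted p = 0.0356) was lost without it (1.18, adjusted p = 0.184), without SF/HA-HEP-PAM replicate 2 (adjusted p = 0.0599) and without Control replicate 1 (adjusted p = 0.116). Aurka, the Aurora kinase of the spindle poles, had 13.3, 9.45 and 8.03 RPM in SF/HA-HEP-PAM, 5.99, 6.01 and 9.40 RPM in SF/HA, 7.67, 7.90 and 12.3 RPM in Alkali-burned and 4.11, 2.26 and 3.94 RPM in Control. All Control libraries lay below all others. Its difference between SF/HA-HEP-PAM and Control was 1.34 (SE 0.40, adjusted p = 0.0244), lost without SF/HA-HEP-PAM replicates 1 or 2 or Control replicate 2 (adjusted p = 0.0608 to 0.109).

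**Figure D4:**
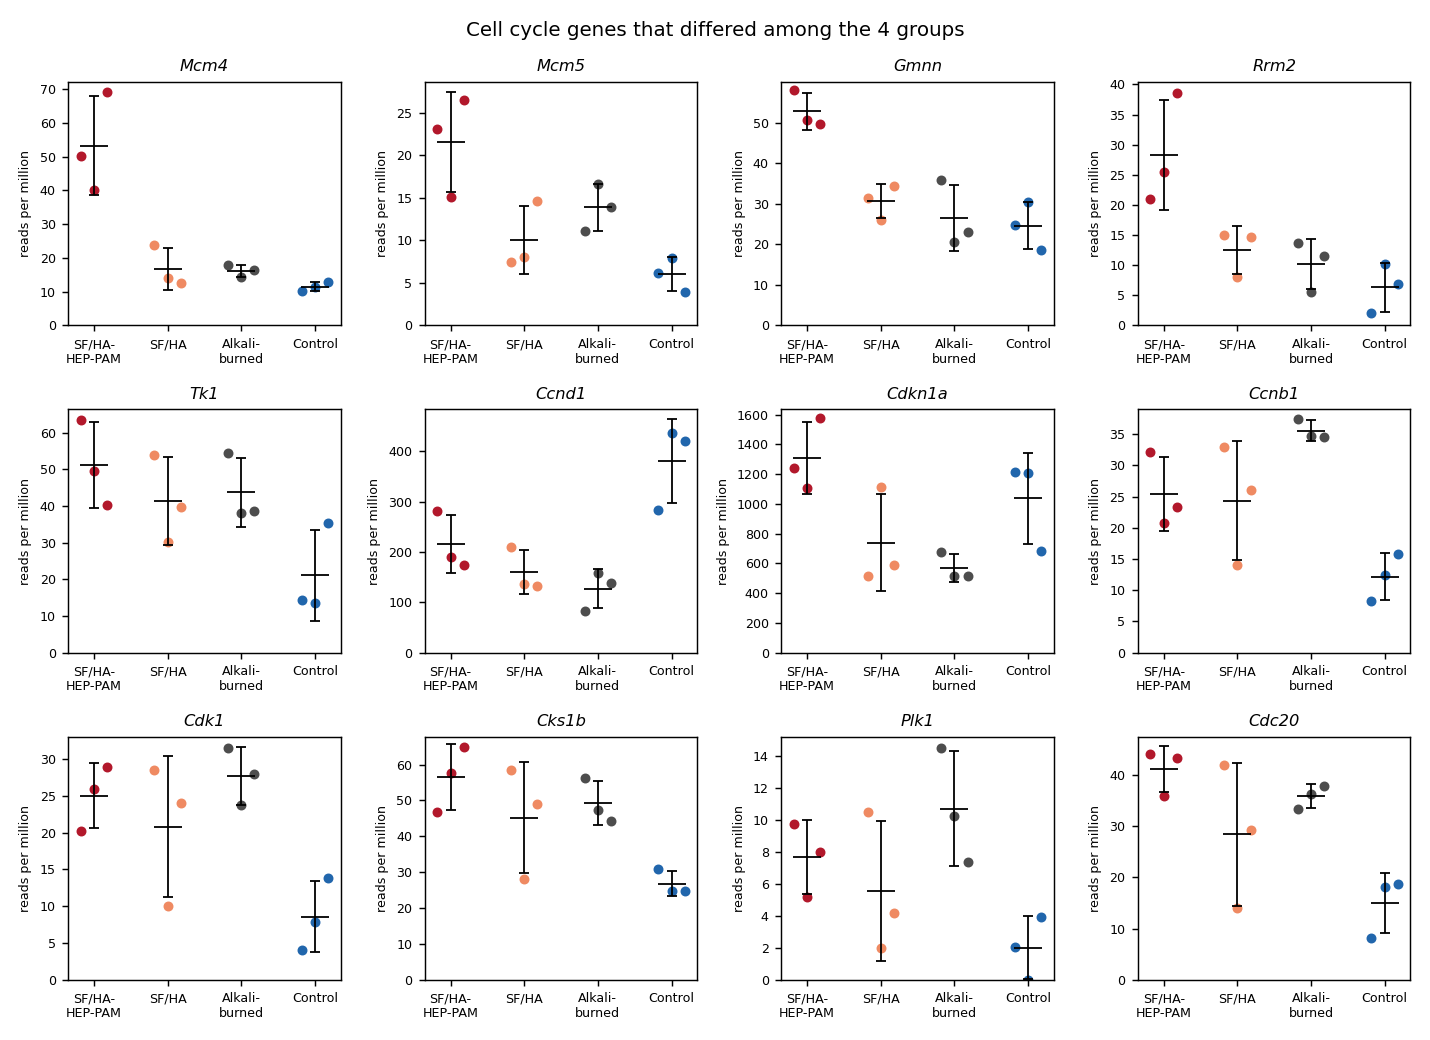
RPM (vertical axis) of the 12 genes that passed the F-test over the 4 groups (horizontal axis); points are libraries, horizontal lines means and bars SD. Mcm4, Gmnn and Rrm2 stand highest in all 3 SF/HA-HEP-PAM libraries, Ccnd1 stands highest in all 3 Control libraries, and Ccnb1 stands at 34.5 to 37.5 in Alkali-burned and 8.23 to 15.8 in Control.

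Of the genes of the spindle, the checkpoint and chromosome segregation, 1 rose against Control in SF/HA-HEP-PAM and in Alkali-burned. All 9 tested had positive differences for Alkali-burned against Control (median 1.09) and for SF/HA-HEP-PAM against Control (median 0.97), where 51.4% and 63.6% of all features were positive. In each 1 of 9 passed, Cdc20 both times (11.1%, against 5.33% and 13.0% of all features), a share near the background in SF/HA-HEP-PAM. Cdc20, the activator of the ubiquitin ligase that ends mitosis, had 44.0, 35.9 and 43.4 RPM in SF/HA-HEP-PAM, 41.9, 14.0 and 29.2 RPM in SF/HA, 33.2, 36.4 and 37.8 RPM in Alkali-burned and 8.23, 18.1 and 18.7 RPM in Control. Control overlapped only with SF/HA replicate 2. The log2 difference from Control was 1.47 in SF/HA-HEP-PAM (SE 0.36, adjusted p = 0.00801), kept in every alternative, and 1.28 in Alkali-burned (SE 0.36, adjusted p = 0.0336). The call in Alkali-burned was lost without any 1 of its libraries or Control replicate 1 (adjusted p = 0.0787 to 0.11). Ube2c, the partner enzyme of that ligase, had 38.4, 41.1 and 38.5 RPM in SF/HA-HEP-PAM, 41.9, 14.0 and 35.5 RPM in SF/HA, 34.9, 42.7 and 30.4 RPM in Alkali-burned and 14.4, 21.4 and 26.6 RPM in Control. It was not called, at 0.93 in SF/HA-HEP-PAM (adjusted p = 0.0679) and 0.79 in Alkali-burned (adjusted p = 0.183) against Control.

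Bub1, a kinase of the spindle checkpoint, passed in SF/HA against Control (log2 2.00, SE 0.57, adjusted p = 0.0382). It had 2.09, 2.83 and 6.42 RPM in SF/HA-HEP-PAM, 10.5, 4.01 and 6.26 RPM in SF/HA, 4.26, 3.95 and 6.57 RPM in Alkali-burned and 2.06, 1.13 and 0 RPM in Control. The SF/HA values came from 7, 2 and 6 reads and the Control values from 1, 1 and 0, so a few reads decide the size. The call was kept with SF/HA-HEP-PAM replicates 1 or 3, SF/HA replicate 2 or Control replicate 1 left out and was lost in the other 8 such fits (adjusted p = 0.0522 to 0.138). With library weights Bub1 was also called higher than Control in Alkali-burned (2.05, adjusted p = 0.00673) and in SF/HA-HEP-PAM (1.56, adjusted p = 0.0267). In Alkali-burned it was called without Control replicate 1 as well (2, adjusted p = 0.0365). The remaining genes of this class, Top2a, Mki67, Birc5, Cenpf, Kif11 and Tpx2, were called in no comparison by limma on log2(RPM + 1) of all libraries. With library weights Top2a (1.06, adjusted p = 0.0397), Mki67 (1.28, adjusted p = 0.0311) and Tpx2 (1.55, adjusted p = 0.00867) were called higher in Alkali-burned than in Control. With single libraries left out, Mki67 was called without Alkali-burned replicate 1 (1.56 for Alkali-burned and 1.19 for SF/HA-HEP-PAM against Control), Top2a without SF/HA-HEP-PAM replicate 2 or Control replicate 1 (1.30 and 1.21 for SF/HA-HEP-PAM against Control), Birc5 without SF/HA replicate 2 (1.10 for SF/HA against Control) and Kif11 without SF/HA replicate 1 (2.65 for SF/HA-HEP-PAM against SF/HA). For Mki67, the antigen of the Ki-67 proliferation stain, the difference from Control was 1.19 in SF/HA-HEP-PAM (adjusted p = 0.0612) and 1.09 in Alkali-burned (adjusted p = 0.139), with no overlap of libraries in either. In SF/HA against Alkali-burned 8 of 9 genes of the class had negative differences (median -0.71), where 46.3% of all features were positive, and all 9 were uncalled; Tpx2, a spindle assembly factor, was at -1.25 (95% interval -2.25 to -0.25, adjusted p = 0.198). SF/HA replicate 2, the shallowest SF/HA library, held the lowest SF/HA value of Cdc20, Ube2c, Birc5, Cenpf and Tpx2. With all libraries thinned to 486264 reads, this class held 87, 33 and 64 reads in SF/HA replicates 1, 2 and 3. The part of depth in the low values of SF/HA replicate 2 was not tested.

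Further genes of the same pathways were counted from lists of other symbols, also chosen with earlier results of these data known. Calls of these lists, of the p53 and G1/S lists below and of the cell type markers were not followed through the alternative settings. Of 37 tested genes of mitosis outside the 40, 10 rose in SF/HA-HEP-PAM against Control (27.0%, against 13.0% of all features), 6 in Alkali-burned (16.2%, against 5.33%) and 4 in SF/HA (10.8%, against 4.43%). The largest in SF/HA-HEP-PAM were the centromere genes Cenpw (2.40) and Cenpa (2.24), the midzone protein Prc1 (2.08) and Ckap2l (2.05). For Ckap2l the libraries of the 2 groups overlapped. Cenpw averaged 15.0 RPM in SF/HA-HEP-PAM and 3.05 RPM in Control. In Alkali-burned Cenpw (2.79), Nuf2 of the kinetochore (2.30), the securin Pttg1 (2.22) and Cdca3 (1.76) led. Control libraries together held 9 reads of Cenpw and 4 of Nuf2. Of 35 other replication genes 3 rose in SF/HA-HEP-PAM against Control (8.57%, below the 13.0% of all features), the uracil glycosylase Ung (1.42), the histone mRNA binder Slbp (1.20) and the clamp loader subunit Rfc2 (1.18). In Alkali-burned 2 of 35 rose (5.71%, near the 5.33% of all features), the flap nuclease Fen1 (1.10) and the dUTPase Dut (1.08). SF/HA-HEP-PAM against SF/HA had 2 of the 37 mitosis genes higher (5.41%, against 6.78% of all features), Knl1 (2.52) and Kif20b (1.96). Each had 2 reads in all SF/HA libraries together, against 37 and 22 in SF/HA-HEP-PAM, so a few reads decide their size.

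Genes of growth arrest and the p53 response, the pathway of Cdkn1a, were called in both patch groups against Control. Of 24 tested, 9 rose in SF/HA-HEP-PAM against Control (37.5%, against 13.0% of all features), 5 against Alkali-burned (20.8%, against 11.7%) and 3 against SF/HA (12.5%, against 6.78%). In SF/HA against Control 3 of 24 rose, Sesn2, Pmaip1 and Ddit4 (12.5%, against 4.43%). Mdm2, the p53-induced ligase that degrades p53, averaged 394 ± 101 RPM in SF/HA-HEP-PAM and 85.1 RPM in Alkali-burned (log2 2.20, adjusted p = 3.1e-05). Sesn2, a stress-induced sestrin, averaged 372 ± 53.9 RPM in SF/HA-HEP-PAM and 94.6 RPM in Alkali-burned (1.96, adjusted p = 7e-06). The antiproliferative genes Tob1 (1.71) and Btg1 (1.34) rose as well. Of 24 other G1/S control genes, SF/HA-HEP-PAM against Alkali-burned had 4 higher (16.7%, against 11.7% of all features) and 1 lower (4.17%, against 4.22%). The 4 were the Cdk1 inhibitor kinase Wee1 (1.74), the Cdk4/6 inhibitor Cdkn2b (1.62), E2f7 (1.52) and E2f4 (1.23), and the 1 lower was Cdk6 (-1.82). Cdk6, a partner kinase of cyclin D, averaged 12.4 RPM in SF/HA-HEP-PAM, 9.20 in SF/HA, 46.4 in Alkali-burned and 11.4 in Control. It was higher in Alkali-burned than in Control (2.09, adjusted p = 0.0156) and lower in SF/HA than in Alkali-burned (-2.29, adjusted p = 0.0177). Of the 24, Alkali-burned against Control had 2 higher (8.33%, against 5.33% of all features), Cdk6 and the D cyclin Ccnd3 (1.47, adjusted p = 0.022). SF/HA-HEP-PAM against Control had 2 higher (8.33%, below the 13.0% of all features) and 1 lower (4.17%, against 2.84%). In SF/HA against Control 0 were higher and 1 was lower (4.17%, against 2.02%).

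Markers of the cell types of the cornea also differed between the groups. Krt12, the keratin of corneal epithelium, averaged 15340 RPM in SF/HA-HEP-PAM, 11240 in SF/HA, 11050 in Alkali-burned and 20790 in Control. By limma it was not called for Alkali-burned (-0.88, adjusted p = 0.0907) or SF/HA (-0.83, adjusted p = 0.121) against Control. Nor was it called for SF/HA-HEP-PAM against Alkali-burned (0.51, adjusted p = 0.264), and libraries overlapped in these comparisons. The 6 matched epithelium markers, Krt12 and Krt5 among them, summed to 36660 to 39530 RPM in SF/HA-HEP-PAM, 26600 to 35430 in SF/HA, 19510 to 29050 in Alkali-burned and 33370 to 57710 in Control. Krt15, a keratin of basal cells in the same list, went the other way, at 6762 RPM in SF/HA-HEP-PAM, 5811 in SF/HA, 2353 in Alkali-burned and 1226 in Control, and was called higher than Control in SF/HA-HEP-PAM (2.46, adjusted p = 0.000447) and SF/HA (2.28, adjusted p = 0.00166). Of the 6 epithelium markers, 3 were lower in Alkali-burned than in Control (50%, against 2.06% of all features). Of the same 6, 2 were higher in SF/HA-HEP-PAM than in Alkali-burned (33.3%, against 11.7% of all features). The 6 keratocyte markers summed to 16620 to 29920 RPM in SF/HA-HEP-PAM, 37640 to 43930 in SF/HA, 31910 to 38720 in Alkali-burned and 46660 to 81480 in Control. Aldh3a1, at 17500 RPM in Control, is counted in both of these sums. Within the keratocyte list Kera and Col1a1 fell against Control in all 3 other groups, while Dcn was called higher in SF/HA than in Control (1.07, adjusted p = 0.0329) and Lum stood at 0.61 (adjusted p = 0.208). Macrophage markers summed to 424 to 484 RPM in SF/HA-HEP-PAM, 472 to 916 in SF/HA, 557.5 to 673 in Alkali-burned and 152 to 188 in Control. All 5 were higher in Alkali-burned than in Control, against 5.33% of all features. Neutrophil markers spread within groups, at 2118 to 19840 RPM in SF/HA-HEP-PAM, 1671 to 17220 in SF/HA, 1281 to 6643 in Alkali-burned and 342 to 391 in Control; their receptors Csf3r and Cxcr2 were at 0 in all Control libraries. The T cell genes Cd3e, Cd3d and Cd2 stood at 14.0 RPM or less in sum in every library. The part of these cells in the differences of the cell cycle genes was not tested.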

How the data were processed

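Poly(A)-primed RNA libraries of rat cornea, 12 in all and 3 in each of 4 groups taken from the sample titles, were compared. Per the labels' protocols, primers carried barcodes and unique molecular identifiers; whether duplicate molecules were collapsed is not given in the sources used here. The authors deposited FPKM values. Per the series text reads were trimmed with fastp and counted with HTSeq-count, while the submitters' processing notes name STAR and featureCounts and build mRatBN7.2. The length column equalled the genomic span in 100% of genes, so FPKM were multiplied by it. This gave RPM and, with a largest relative deviation of 3.51e-06 from whole numbers, the reads. A further 108 lines that name no gene were left out.

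Features with at least 5 RPM in 3 or more of 12 libraries were tested with limma 3.58.1 (R 4.3.3, trend) on log2(RPM + 1) in 1 model of 4 group means. An earlier treatment used log2(FPKM + 1), where the filter and pseudocount act on intron length; it is kept as an alternative. P-values were Benjamini-Hochberg adjusted over all features. The test was checked on simulated data. Per-library values are given for called members and for the 2 highest of each role class; up to 4 called genes per further list are named. Members and lists were chosen with earlier results of these data known. The symbols Cdc45 and Rnaseh2a each had 2 gene IDs, of which the first was used. Alternatives covered pseudocount, filter, scaling, voom, library weights, depth, a replicate block and left-out libraries. Figures used Python 3.11.15 and matplotlib 3.10.9.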

Additional observations from a re-analysis of the deposited data

How the results depend on the processing

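No called gene changed direction in any alternative, and SF/HA against Alkali-burned stayed at 0 called genes in all. With 1 library left out in turn, the count of called genes (6, 4, 1, 2 and 12) ran from 3 to 7 for Alkali-burned against Control, 2 to 4 for SF/HA-HEP-PAM against Alkali-burned, 1 to 2 for SF/HA-HEP-PAM against SF/HA, 1 to 6 for SF/HA against Control and 7 to 13 for SF/HA-HEP-PAM against Control. The F-test count of 12 ran from 6 to 17. For SF/HA-HEP-PAM against Alkali-burned the count was 2 without SF/HA-HEP-PAM replicate 1 or Alkali-burned replicates 2 or 3. For SF/HA against Control it was 6 without SF/HA replicate 2, and for SF/HA-HEP-PAM against SF/HA 2 without SF/HA replicates 1 or 2. The F-test count was 6 without SF/HA-HEP-PAM replicate 3. On log2(FPKM + 1) the counts were 2 for Alkali-burned, 1 for SF/HA and 3 for SF/HA-HEP-PAM against Control. A pseudocount of 5 RPM gave 1 for SF/HA and 7 for SF/HA-HEP-PAM against Control, and 0.1 RPM gave 1 for SF/HA. SF/HA against Control also gave 1 with no filter, with at least 20 RPM, with voom, with quantile normalization and with only the compared groups. Median-of-ratios scaling and quantile normalization each gave 2 for SF/HA-HEP-PAM against Alkali-burned and 2 against SF/HA, and quantile normalization 6 against Control. Library weights gave 11 for Alkali-burned against Control and 19 in the F-test. Without 4 libraries that earlier results had set apart, SF/HA-HEP-PAM against SF/HA gave 3 and SF/HA against Control 7. The cause of these shifts was not tested. Same-numbered libraries did not pair: 4 of 18 pairs correlated above 0.1 (-0.134 to 0.148). A fit with the replicate number as a block gave 6, 4, 1, 2 and 12 called genes and 12 in the F-test. Few reads limit most of these genes.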
